A study of Mus musculus with 6 samples.

Results

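Genes of cholesterol and fatty acid synthesis, with the SREBP circuit that controls them, were compared between mouse arrays labelled KO and WT. The paper describes the cells as fibroblasts, WT or CD98hc KO. The genes were taken from a list of 36 symbols, and a gene was measured where a probe set carried that symbol and no other in the platform annotation. Of the 36, 31 genes with 57 probe sets were measured, out of 17097 named genes on the array. They were 5 genes of SREBP control, 6 of the mevalonate steps, 10 of the late sterol steps and 10 of the fatty acid steps. Acat2, Pmvk, Srebf1 and Scd2 were not analysed here, and Sc4mol is an older symbol of Msmo1.

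CD98hc, encoded by Slc3a2, is the heavy chain that carries several amino acid transporters to the cell surface. RNA came from cells that the paper describes as fibroblasts obtained from mouse embryonic stem cells, either WT or with CD98hc deleted. By its methods both were grown in the same high-glucose DMEM with serum, non-essential amino acids, glutamine and β-mercaptoethanol. Each genotype had 3 arrays, numbered 1, 3 and 5, and values below are given in that order. Whether arrays of 1 genotype came from separate cultures, and whether a line is a single clone, is not stated in the labels or methods, and the p-values thus cover the spread among these 6 arrays alone, which may be technical. Values are log2 RMA expression, a relative scale without a true zero on which 1 unit is a 2-fold difference.

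Cholesterol is built from acetyl-CoA in a long chain of reactions, first through mevalonate to squalene and then through sterol intermediates. SREBP-2, a transcription factor held in the endoplasmic reticulum while sterols are plentiful, drives most of these genes, and the related SREBP-1 drives many genes of fatty acid synthesis and desaturation. SCAP escorts both to the Golgi, where they are cut and released, and the INSIG proteins hold SCAP back when sterols are high.

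The array labels were checked first. Slc3a2 had log2 values of 10.64, 10.67 and 10.51 with the WT label and 11.65, 11.57 and 11.54 with the KO label, higher by 0.98 (standard error, SE, 0.075, limma adjusted p = 0.00012) under the KO label. This goes against the label, and where its single probe set lies relative to the deletion is not known here. Pluripotent stem cell markers were higher under the KO label in 15 of 15 cases, led by Dppa2 (7.30) and Zfp42 (7.30), and the median level of the list was 4.57 to 4.70 on WT-labelled and 10.95 to 11.04 on KO-labelled arrays. Of 18 fibroblast markers 11 were lower and 1 was higher, led by S100a4 (−7.02) and Col3a1 (−6.89), with median levels of 9.95 to 10.21 against 4.88 to 4.97. The fibroblast markers Dcn, Lum, Fap, Postn, Pdgfra and Thy1, named after their values were seen, lay between 3.77 and 5.80 on all 6 arrays. Nonspecific control probe sets had a median of 4.23 there, and Thy1 was the fibroblast marker that was higher (0.37). Of 11 epithelial markers 10 were higher and 0 lower, led by Epcam (5.57) and Cdh1 (5.23). Among markers of tissues rich in lipid synthesis, 1 of 8 hepatocyte markers (Afp, −2.96) and 1 of 6 adipocyte markers (Fabp4, −0.65) were lower and 0 were higher, the next largest differences being −0.18 for Fgb and 0.15 for Retn, which did not pass. The marker lists divide the arrays exactly as the labels do, so for every result below genotype and cell state cannot be told apart. The arrays are therefore called KO-labelled and WT-labelled throughout.

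Most of the synthesis genes were lower on KO-labelled arrays, and no gene was higher beyond the test. At an adjusted p under 0.05 from limma, adjusted over all 17097 genes, 21 of the 31 were lower (67.7%), 0 were higher and 10 did not pass. Over all genes tested, 19.2% were lower and 22.6% were higher by the same rule. Among the 9271 genes with a mean log2 value of at least 6, a limit that all 31 met, 29.1% were lower. By over 2-fold 13 of the 31 were lower, against 10.1% of all genes, and 0 were higher by over 2-fold, against 9.27%. Of the 9271 genes with a mean of at least 6, 1501 were lower and 1219 higher by over 2-fold. On 21 genes every KO-labelled array was below every WT-labelled array, against 23.4% of all genes and 31.9% of those with a mean of at least 6. The median change of the 31 was −0.87 on the log2 scale and that of all genes 0.02. Fewer cells with a transcript and less of it per cell cannot be told apart in these RNA pools.

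**Figure D1:**
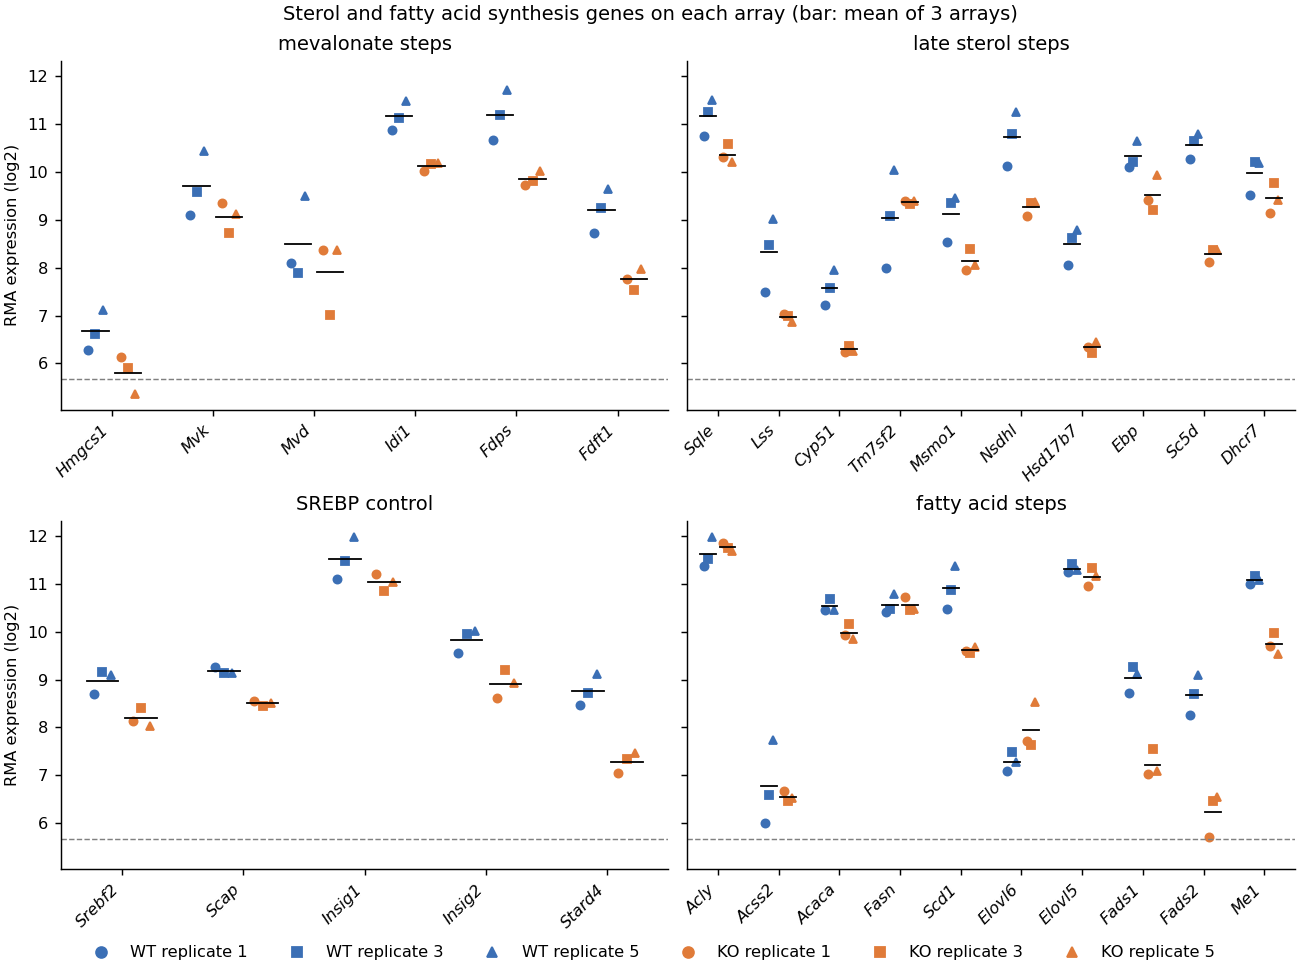
Log2 RMA expression (y axis) of the 31 genes (x axis) on each of the 6 arrays, by step of the pathway. Points are single arrays, coloured by label with a symbol for each replicate number, bars are means of 3 arrays and the dashed line is the median of all values on the arrays (5.67). On 21 genes the KO-labelled points lie wholly below the WT-labelled points, and on Elovl6 wholly above.

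In the SREBP control circuit 4 of 5 genes were lower and the median change was −0.79. Scap had values of 9.25, 9.13 and 9.15 on WT-labelled and 8.56, 8.45 and 8.50 on KO-labelled arrays. The groups did not overlap and the arrays of each label lay close together. The change was −0.67 (SE 0.069, limma adjusted p = 0.00044). Srebf2, which encodes SREBP-2 itself, had 8.69, 9.15 and 9.09 against 8.14, 8.40 and 8.02, a change of −0.79 (SE 0.157, adjusted p = 0.0075), with every KO-labelled array lower. Its brighter probe set changed by −0.42 and did not pass (adjusted p = 0.18).

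The retention factors Insig1 and Insig2 both had lower means on KO-labelled arrays, but only Insig2 passed. Insig2 had 9.55, 9.95 and 10.01 against 8.61, 9.20 and 8.93, without overlap, and changed by −0.92 (SE 0.186, adjusted p = 0.0079). Its other probe sets gave −0.82 and −0.73. Insig1, a well-known SREBP target, had 11.10, 11.48 and 11.97 against 11.20, 10.86 and 11.04, so that WT replicate 1 lay within the KO-labelled range. The difference of −0.49 (95% interval −1.02 to 0.05, adjusted p = 0.14) did not pass. It was −0.69 without WT replicate 1, where it passed (adjusted p = 0.033), and −0.26 without WT replicate 5, where it did not (adjusted p = 0.28). Stard4, a sterol carrier between membranes and another SREBP target, had the largest change of the group, with 8.46, 8.71 and 9.12 against 7.04, 7.34 and 7.47. All KO-labelled arrays were lower, and the change was −1.48 (SE 0.191, adjusted p = 0.0012). All 3 of its probe sets were lower, the other two by −1.38 and −1.36.

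Promoters were searched for letters that SREBPs and their usual partners are known to read, as a description. RefSeq promoters of GRCm38.p6, from 250 bases before to 50 after the start, were matched by symbol for 25 of the 31 genes. The classic sterol regulatory element was searched on either strand in 2 overlapping forms, TCACNCCAC and ATCACNCCA. At least 1 form was present in 2 of the 25 promoters (8.0%), those of Hmgcs1 and Srebf2, and in 2.14% of 27025 genes with a promoter. A gene counted where any of its promoters matched, and the share of all genes was not limited by level on the arrays. CCAAT, the box bound by NF-Y, was present in 21 of 25 (84.0%) against 41.1% of all genes. It was in 4 of 4 promoters of the mevalonate steps, 9 of 9 of the late sterol steps, 3 of 4 of SREBP control and 5 of 8 of the fatty acid steps. By outcome, 12 of the 15 lower genes with a matched promoter had it, as did 9 of the 10 that did not pass. The genes without a matched promoter were all among the 21 lower genes. GGGCGG, read by Sp1, was in 84.0% against 38.2%, and by outcome in 14 of the 15 and 7 of the 10. CACGTG, an E-box that SREBP-1 can also bind, was in 24.0% against 8.09%, and by outcome in 3 of the 15 and 3 of the 10. The promoters that hold a sterol regulatory element form are shown for the 250 bases before the start, with that element and each CCAAT box, in either orientation (CCAAT or ATTGG), in capitals. The Hmgcs1 sequence is chr13:119690101-119690350 and that of Srebf2 is chr15:82147019-82147268, both on the plus strand.
Hmgcs1: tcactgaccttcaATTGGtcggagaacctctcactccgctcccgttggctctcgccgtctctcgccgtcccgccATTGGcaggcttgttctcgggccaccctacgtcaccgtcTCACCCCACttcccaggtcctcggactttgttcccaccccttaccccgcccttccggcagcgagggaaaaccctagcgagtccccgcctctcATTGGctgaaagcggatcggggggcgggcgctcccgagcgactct
Srebf2: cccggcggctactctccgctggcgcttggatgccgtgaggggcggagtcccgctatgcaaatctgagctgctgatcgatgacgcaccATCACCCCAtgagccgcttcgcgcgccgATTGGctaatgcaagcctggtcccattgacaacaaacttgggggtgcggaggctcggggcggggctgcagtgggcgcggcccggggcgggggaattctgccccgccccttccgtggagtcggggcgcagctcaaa
The element began 137 bases before the start of Hmgcs1 and 163 bases before that of Srebf2. The Hmgcs1 sequence had 3 CCAAT boxes in the reverse orientation and the Srebf2 sequence 1. Both genes were lower on KO-labelled arrays, and no binding was measured.

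Along the mevalonate steps 4 of 6 genes were lower, 0 were higher, and the median change was −0.95. The largest change was in Fdft1, squalene synthase, the first enzyme committed to sterols. It had 8.73, 9.24 and 9.65 on WT-labelled and 7.77, 7.53 and 7.97 on KO-labelled arrays, a change of −1.45 (SE 0.240, adjusted p = 0.0034) or 2.73-fold lower. The groups were well apart, but the WT-labelled arrays were themselves spread over nearly 1 log2 unit. Fdps, which makes the farnesyl diphosphate shared by sterols and prenyl groups, had 10.67, 11.19 and 11.71 against 9.72, 9.81 and 10.01. Its change was −1.34 (SE 0.254, adjusted p = 0.0060). Idi1, the isopentenyl diphosphate isomerase, had 10.88, 11.13 and 11.49 against 10.03, 10.18 and 10.18, a change of −1.04 (SE 0.158, adjusted p = 0.0023). For both, WT replicate 1 was the lowest WT-labelled array and still above every KO-labelled array.

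Hmgcs1, the synthase that makes HMG-CoA, had 6.29, 6.61 and 7.12 against 6.14, 5.90 and 5.37. WT replicate 1 and KO replicate 1 differed by little, and the change of −0.87 (SE 0.272) passed narrowly (adjusted p = 0.043). Its single probe set was read near the median of all values, 5.67, and the call was lost without WT replicate 3 or 5 or KO replicate 3 or 5 (adjusted p between 0.077 and 0.11). The kinase Mvk and the decarboxylase Mvd overlapped between labels on their most variable probe sets and did not pass. Mvk had 9.11, 9.58 and 10.43 against 9.35, 8.72 and 9.12, a difference of −0.64 (95% interval −1.48 to 0.19). Its other probe set did not overlap, with 8.94, 9.02 and 9.92 against 8.64, 8.23 and 8.79. That probe set gave −0.74 and did not pass over all probe sets (limma adjusted p = 0.10). Mvd had 8.10, 7.88 and 9.49 against 8.36, 7.01 and 8.36, a difference of −0.58 (95% interval −1.88 to 0.72), and its other probe set gave −0.41. Without WT replicate 5 the differences were −0.28 for Mvk and −0.08 for Mvd, and without KO replicate 3 that of Mvd was −0.13. Both intervals include 0 as well as a change as large as that of Fdft1.

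The late sterol steps, from squalene to cholesterol, had 8 of 10 genes lower and 0 higher, with a median change of −1.13, the largest of the 4 groups. Sc5d, the sterol desaturase near the end of the chain, had 10.28, 10.64 and 10.80 against 8.11, 8.36 and 8.37. The gap between the labels was several times the spread within either. Sc5d was 4.90-fold lower (−2.29, SE 0.150, adjusted p = 6.8e-05), and its other probe sets gave −1.51 and −1.53. Hsd17b7, the ketosteroid reductase of sterol demethylation, had 8.06, 8.62 and 8.80 against 6.35, 6.21 and 6.45. It was 4.46-fold lower (−2.16, SE 0.193, adjusted p = 0.00024), again without overlap. Another probe set gave −2.03, and the last, read near the median of all values, gave 0.00.

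The other enzymes of sterol demethylation were lower too. Cyp51, the lanosterol demethylase, had 7.23, 7.57 and 7.95 against 6.24, 6.37 and 6.27 and changed by −1.29 (SE 0.177, adjusted p = 0.0015), and its other probe sets gave −0.90 and −0.77. Nsdhl, the decarboxylating sterol dehydrogenase, had 10.12, 10.80 and 11.26 against 9.08, 9.36 and 9.37 and changed by −1.46 (SE 0.278, adjusted p = 0.0062). Msmo1, the methylsterol oxidase, had 8.54, 9.35 and 9.45 against 7.96, 8.40 and 8.06 and changed by −0.98 (SE 0.259, adjusted p = 0.023). In all of them WT replicate 1 was the WT-labelled array nearest to the KO-labelled ones. A second probe set of Msmo1 gave −0.31 and did not pass.

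Sqle and Lss, which oxidise squalene and close it to lanosterol, and Ebp, a sterol isomerase, were lower as well. Sqle had 10.74, 11.24 and 11.50 against 10.30, 10.58 and 10.20, a change of −0.80 (SE 0.206, adjusted p = 0.021). Lss had 7.49, 8.47 and 9.01 against 7.04, 6.99 and 6.87, a change of −1.36 (SE 0.359, adjusted p = 0.023). Ebp had 10.11, 10.21 and 10.65 against 9.42, 9.20 and 9.94, a change of −0.80 (SE 0.226, adjusted p = 0.029). Lss was nearly level across the KO-labelled arrays and varied by over 1 log2 unit across the WT-labelled arrays. The late sterol steps had 4 genes lower when WT replicate 3 or KO replicate 1 was left out, and 5 without KO replicate 5. Over all genes 16.7% to 16.9% were lower in these settings.

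Dhcr7 and Tm7sf2, both sterol reductases, did not pass. Dhcr7, the last enzyme on the route to cholesterol, had 9.52, 10.20 and 10.19 against 9.14, 9.78 and 9.42, a difference of −0.52 (95% interval −1.09 to 0.05, adjusted p = 0.13). WT replicate 1 lay inside the KO-labelled range, and without it the difference was −0.75 and passed (adjusted p = 0.030). Leaving out any other single array gave −0.37 to −0.69, none of which passed. Tm7sf2 had 7.99, 9.08 and 10.05 against 9.40, 9.33 and 9.40. The KO-labelled arrays were almost equal and lay within the wide range of the WT-labelled arrays, and the difference was 0.34 (95% interval −0.81 to 1.48, adjusted p = 0.64).

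**Figure D2:**
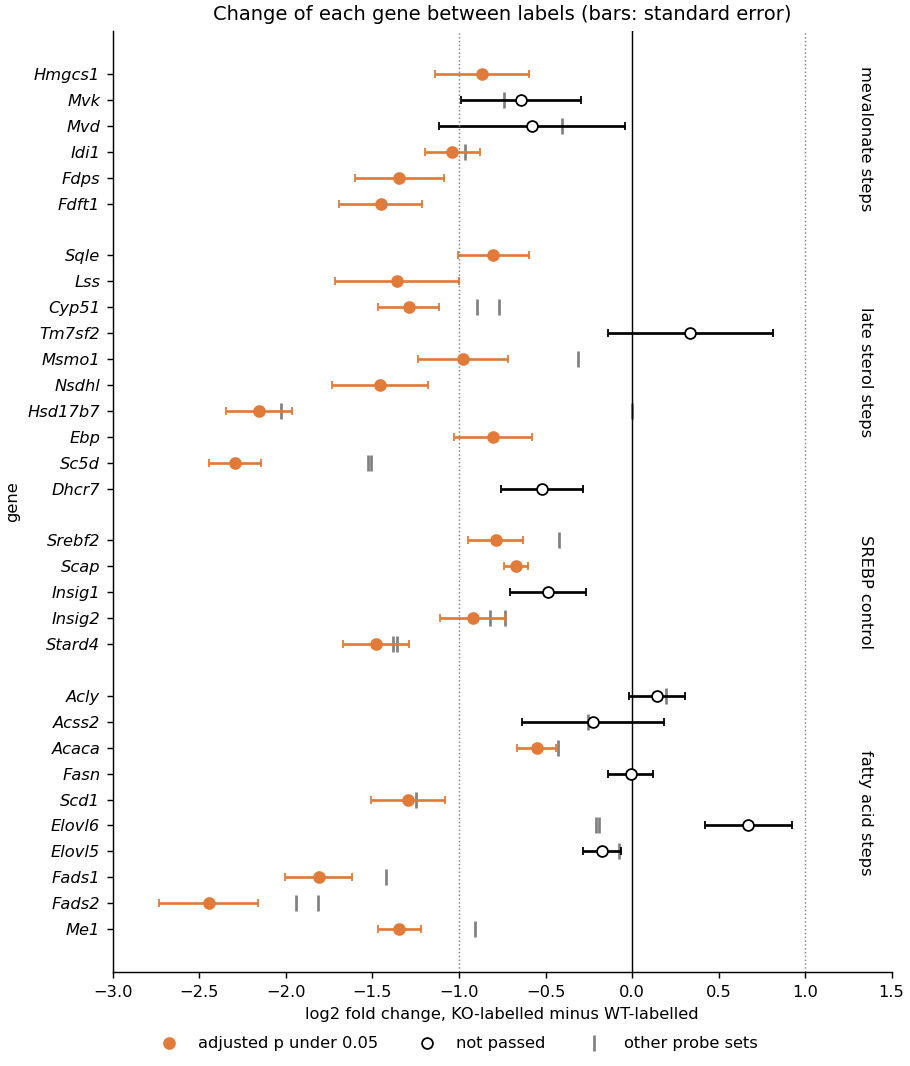
Log2 fold change of each gene (y axis, by step), KO-labelled minus WT-labelled arrays (x axis, dotted lines at 2-fold). Circles with bars are the change and its standard error for the most variable probe set, filled at an adjusted p under 0.05, and grey ticks are the other probe sets of the gene. The 21 filled circles all lie to the left of 0, from −2.45 for Fads2 to −0.55 for Acaca.

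Among the fatty acid steps 5 of 10 genes were lower, the desaturases Fads1, Fads2 and Scd1 with Me1 and Acaca, 0 were higher, and the median change was −0.39. Fads2 and Fads1, the desaturases of polyunsaturated fatty acids, had the largest changes. Fads2 had 8.27, 8.70 and 9.09 against 5.72, 6.45 and 6.55 and was 5.45-fold lower (−2.45, SE 0.286, adjusted p = 0.00076). This was the largest change among the 31 genes by the most variable probe set. By the brightest probe set Fads2 gave −1.81, a smaller change than that of Sc5d (−2.29) or Hsd17b7 (−2.03). Fads1 had 8.72, 9.25 and 9.13 against 7.02, 7.55 and 7.10 and was 3.51-fold lower (−1.81, SE 0.193, adjusted p = 0.00050). Neither overlapped between labels, and the other probe sets agreed in sign, at −1.94 and −1.81 for Fads2 and −1.42 for Fads1. Scd1, the desaturase that makes oleate, had 10.48, 10.87 and 11.36 against 9.59, 9.56 and 9.68, a change of −1.29 (SE 0.212, adjusted p = 0.0033).

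Me1, the cytosolic malic enzyme that supplies NADPH, had 11.00, 11.16 and 11.09 against 9.70, 9.98 and 9.53. The WT-labelled arrays were nearly equal and the KO-labelled arrays at least 1 log2 unit lower, a change of −1.35 (SE 0.124, adjusted p = 0.00027). Its other probe set had 9.58, 9.89 and 9.89 against 9.02, 8.86 and 8.75, a smaller change of −0.91. Acaca, acetyl-CoA carboxylase, had 10.45, 10.69 and 10.46 against 9.93, 10.16 and 9.86, a smaller change of −0.55 (SE 0.112, adjusted p = 0.0082), without overlap. Its other probe set gave −0.43 and did not pass over all probe sets (limma adjusted p = 0.062). By the most variable probe set both genes differed little among the WT-labelled arrays.

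Acly and Acss2, which supply the acetyl-CoA for Acaca, and Fasn, which uses its product, overlapped between labels and did not pass. Fasn, fatty acid synthase, had 10.42, 10.48 and 10.79 against 10.73, 10.46 and 10.47, with full overlap and a difference of −0.01 (95% interval −0.32 to 0.30, adjusted p = 0.97). Acly, ATP citrate lyase, had 11.37, 11.51 and 11.99 against 11.86, 11.75 and 11.69, a difference of 0.14 (95% interval −0.25 to 0.54, adjusted p = 0.56), with 0.33 and a pass as higher without WT replicate 5 (adjusted p = 0.045) and 0.02 without WT replicate 1 (adjusted p = 0.95). Acss2, the cytosolic acetyl-CoA synthetase, had 6.01, 6.59 and 7.74 against 6.68, 6.47 and 6.52. Its difference of −0.23 has an interval from −1.22 to 0.76, set by the spread of the WT-labelled arrays, and its sign turned to 0.25 without WT replicate 5.

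The elongases did not pass. Elovl5, which extends polyunsaturated fatty acids, had 11.25, 11.41 and 11.30 against 10.95, 11.32 and 11.16, a difference of −0.17 (95% interval −0.44 to 0.09, adjusted p = 0.27), and −0.08 without KO replicate 1. Elovl6, which extends palmitate, had 7.08, 7.49 and 7.27 against 7.72, 7.62 and 8.52. Every KO-labelled array was higher, as for 28.1% of all genes, and KO replicate 5 stood above the rest, yet the difference of 0.67 (SE 0.252) missed the threshold (adjusted p = 0.077) and was 0.39 without KO replicate 5. The other Elovl6 probe sets gave −0.19 and −0.21, so its probe sets disagree in sign. Across the 57 probe sets of all 31 genes, 52 had a negative change, and of the 19 genes with more than 1 probe set 17 had all of one sign.

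Related genes were set against each other by their difference on each array, compared between labels with an exact two-sided permutation test, for 3 pairs. With 3 arrays against 3 the smallest p this test can give is 0.1, so no pair could pass. Fads2 changed more than Fads1 by 0.63 log2 units (exact p = 0.2). Insig2 changed more than Insig1 by 0.44 (exact p = 0.2). The change of Elovl5 minus that of Elovl6 was −0.84 (exact p = 0.1), but 0.13 with the brightest probe set of each gene and −0.22 with the mean of the probe sets. After adjustment over the 3 pairs each p was 0.2.

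Most of the genes followed the same order among the WT-labelled arrays, and fewer followed it among the KO-labelled arrays. Among the WT-labelled arrays replicate 1 was the lowest in 29 of 31 genes, against 31.7% of all genes, and replicate 5 the highest in 23, against 32.7%. Both held for 22 genes (71.0%), against 14.8% of all genes and 17.5% of those with a mean of at least 6. By step this was 5 of 6 mevalonate, 9 of 10 late sterol, 3 of 5 SREBP control and 5 of 10 fatty acid genes. The median deviation of the 31 genes from their WT-labelled mean was −0.38 on replicate 1, 0.03 on replicate 3 and 0.34 on replicate 5, while that of all genes lay between −0.01 and 0.01. The KO-labelled arrays deviated by −0.05, 0.05 and 0.01. KO replicate 1 was lowest with KO replicate 5 highest in 6 of the 31 genes. The same held for 1824 of all 17097 genes and 1000 of the 9271 with a mean of at least 6.

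**Figure D3:**
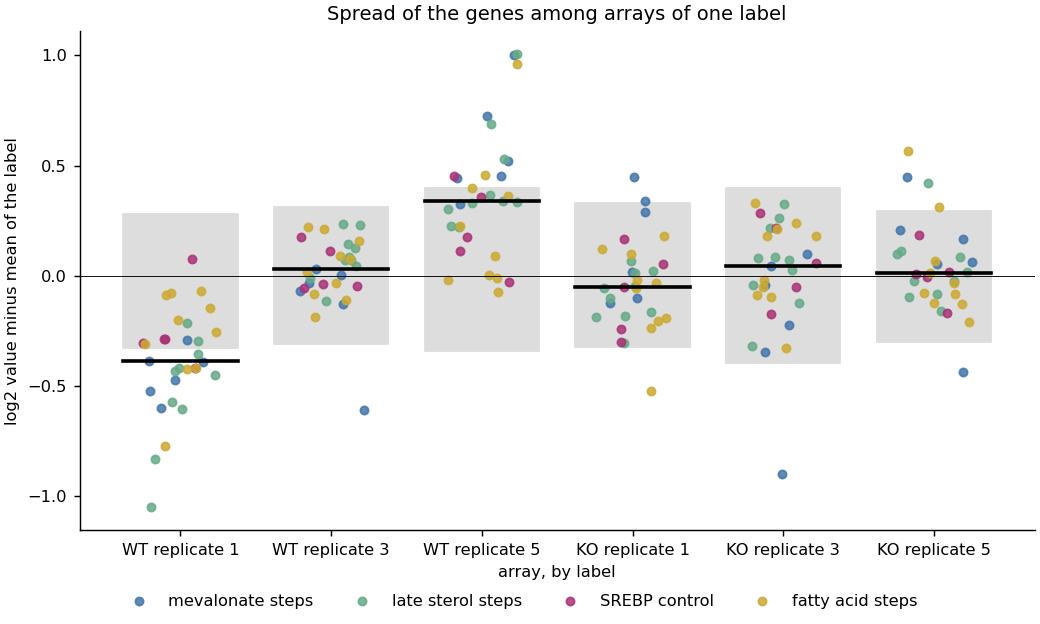
Log2 value of each of the 31 genes minus the mean of its label (y axis), on each array (x axis). Points are genes coloured by step, black bars are their medians and grey boxes span the central 90% of all genes. The points lie mostly below 0 on WT replicate 1 (median −0.38) and above 0 on WT replicate 5 (median 0.34), and the medians of the KO-labelled arrays lie between −0.05 and 0.05.

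The median SD of the genes was 0.38 with the WT label and 0.18 with the KO label, against 0.19 under both labels for genes with a mean of at least 6 and 0.14 for all genes, so that the KO-labelled spread was like that of other genes at such levels. Over all probe sets the 3 WT-labelled arrays had medians of 5.62, 5.64 and 5.63. Fibroblast markers shared the pattern in 8 of 18 genes (44.4%) and pluripotency markers in 2 of 15, and their part in it was not tested. The size of the difference between labels depends on the WT-labelled array it is taken from. The median of the KO-labelled mean minus a single WT-labelled array was −0.53 for replicate 1, −0.96 for replicate 3 and −1.32 for replicate 5, so the direction was the same against each. The median change was −1.06 without WT replicate 1 and −0.73 without WT replicate 5.

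The hybridisation controls, transcripts added to every hybridisation, were 1.25 log2 units lower on both replicate 3 arrays than on those of replicates 1 and 5. Each of these sets holds both labels, so the comparison was repeated within them. All 31 genes had the same sign within the 4 arrays of replicates 1 and 5 and in replicate 3 alone, with median changes of −0.95 and −0.87. Sc5d gave −2.30 within the 4 arrays and −2.28 in replicate 3, Fads2 −2.54 and −2.25, Fdft1 −1.32 and −1.71, and Scap −0.67 and −0.68. With this division as a covariate 20 genes were lower, Hmgcs1 being lost (adjusted p = 0.061), and within the 4 arrays alone 14 were lower. Over all genes the shares lower were 21.5% with the covariate and 16.6% within the 4 arrays.

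Other genes of sterol and fatty acid handling included lower and higher genes. The share that was higher, 5 of 23, 4 of 15, 3 of 15 and 8 of 39 in the lists below, was near the 22.6% of all genes, and the share that was lower is read against 19.2% of all genes. Of 23 genes of sterol uptake, export and storage 10 were lower and 5 higher, with a median change of −0.08. Lrp1, an endocytic lipoprotein receptor, changed by −2.92 (SE 0.182, adjusted p = 5.5e-05) and the lysosomal cholesterol carrier Npc2 by −1.82 (SE 0.230, adjusted p = 0.0011). The lipoprotein component Apoe was higher by 3.03 (SE 0.600, adjusted p = 0.0073), at 9.15, 7.43 and 9.95 on the KO-labelled arrays against 5.57 to 6.01, and the sterol transfer protein Gramd1b by 2.07 (SE 0.199, adjusted p = 0.00033). Of 15 genes of SREBP processing and reductase turnover 9 were lower and 4 higher, with a median of −0.46. Erlin1, which takes part in degradation at the endoplasmic reticulum, changed by −1.99 (SE 0.141), and the phosphatidate phosphatase Lpin1 by −1.41 (SE 0.339, adjusted p = 0.016). Paqr3, a Golgi anchor of SCAP, was higher by 1.21 and Fbxw7, a ubiquitin ligase subunit that targets nuclear SREBPs, by 1.20.

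Of 15 genes of sterol reductases and the isoprenoid branch 6 were lower and 3 higher, with a median of −0.23. Ggps1, which extends farnesyl to geranylgeranyl diphosphate, changed by −1.39 (SE 0.222) and the prenyl protein protease Zmpste24 by −0.97 (SE 0.112). The prenyltransferase subunits Fntb and Rabggta were higher by 1.30 (SE 0.135) and 1.23 (SE 0.122). Of 39 genes of fatty acid elongation, activation and esterification 16 were lower and 8 higher, with a median of −0.12. Fads3, a relative of Fads1 and Fads2, had 9.87, 9.61 and 10.45 against 6.17, 6.13 and 5.71 and changed by −3.97 (SE 0.239, adjusted p = 4.8e-05). Acsl5, an acyl-CoA synthetase, changed by −3.19 (SE 0.248), the fatty acid carrier Fabp5 by −1.92 (SE 0.308), and the dehydratase Hacd2 by 1.88 (SE 0.446, adjusted p = 0.015).

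**Figure D4:**
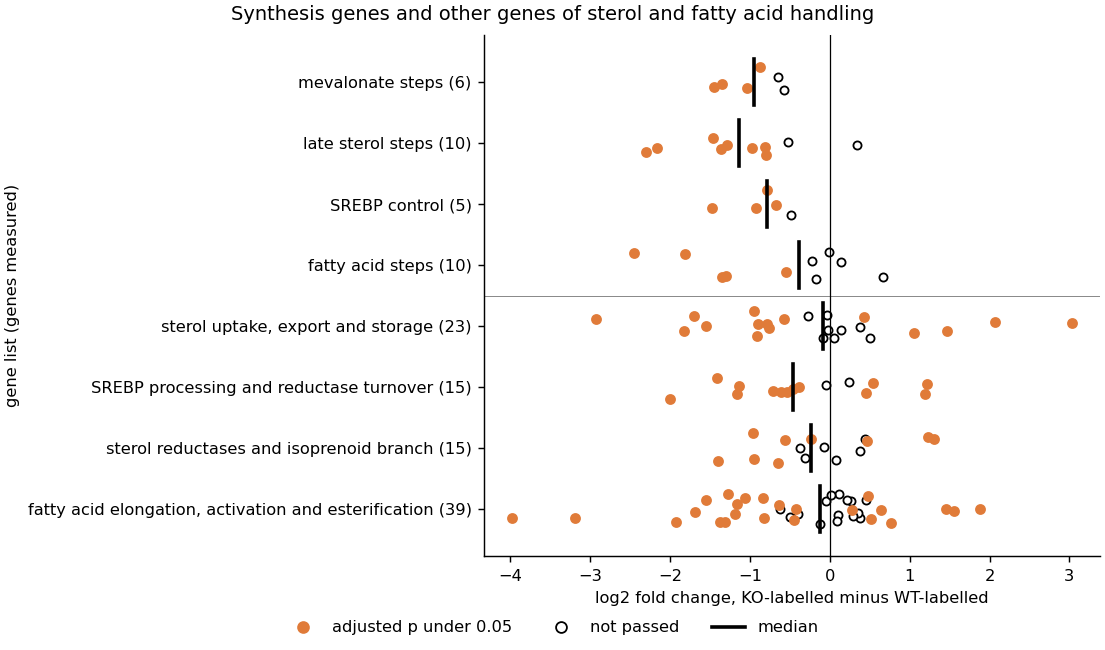
Log2 fold change, KO-labelled minus WT-labelled arrays (x axis), of the genes of each list (y axis, number measured in brackets), with the synthesis genes above the grey line. Points are genes, filled at an adjusted p under 0.05, and black bars are medians. The medians of the 4 upper lists lie between −1.13 and −0.39 and those of the 4 lower lists between −0.46 and −0.08, with filled points on both sides of 0 in the lower lists alone.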

How the data were processed

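Total RNA of the cultured cells was amplified to cDNA and hybridised to Affymetrix mouse genome arrays, 3 labelled WT and 3 labelled KO. The authors normalised the arrays together by RMA and deposited 1 log2 value per probe set, and such joint normalisation can shrink differences that affect most genes. The methods name affyPLM for background correction and summarisation, with no version. Probe sets were named from the platform annotation: of 45141, 28898 had 1 symbol, 551 several and 15692 none here. Those with several were left unnamed. As in the methods, the most variable probe set stood for a gene, which gave 17097 genes. A linear model was fitted in limma 3.58.1 under R 4.3.3 (lmFit, then eBayes), with Benjamini-Hochberg adjustment over all genes, and called at an adjusted p under 0.05. The study's own model had the scan batch as a covariate, which the labels do not give per array, and no covariate was used. The calculation was tested on simulated data. No detection calls were used, and precision is limited by there being 3 arrays a label.

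The genes, the other lists and the marker lists were chosen with earlier results of these data known. Every measured synthesis gene is named, with up to 4 genes of each other list by largest change among those that passed, and 2 of each marker list by largest change. The fibroblast markers low under both labels are named outside this rule. Promoters are RefSeq sequences of GRCm38.p6, of which those with a sterol regulatory element form are shown. Protein sequences were not used here. Alternatives were the replicate number as a block, the replicate 3 division as a covariate and the 4 other arrays alone, each array left out, the brightest probe set, the mean of probe sets, probe sets without _s, _x or _a suffixes, quantile normalisation, median centring, a filter at a mean of 6, eBayes with trend and robust settings, adjustment over all probe sets and a 2-fold limit. Plots were made in Python 3.11.15 with matplotlib 3.10.9.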

Additional observations from a re-analysis of the deposited data

How the results depend on the processing

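Over 17 settings for each of the 31 genes, 486 of 527 changes kept their direction and side of the threshold, 31 kept their direction but no longer passed, 4 passed newly and 6 changed sign. The calls lost were those of Hmgcs1, Fdps, Sqle, Lss, Msmo1, Nsdhl, Ebp and Srebf2. No gene that had passed changed sign. The block, covariate, filter at a mean of 6, trend and robust settings and adjustment over all probe sets cannot alter a change. Under these only the side of the threshold could move. For genes with 1 probe set, the brightest and mean settings used the same values again. With 1 array left out Tm7sf2 ranged from −0.19 (without WT replicate 1) to 0.84, Acss2 from −0.61 to 0.25 (without WT replicate 5) and Fasn from −0.10 to 0.11 (without WT replicate 5, and 0.04 and 0.03 without KO replicates 3 and 5), and Elovl6 was −0.21 with the brightest probe set. The cause was not tested.

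The 21 calls became 13 with the 2-fold limit, 14 within the 4 arrays of replicates 1 and 5, which are fewer, and 16 to 23 with 1 array left out. Over all genes 10.1%, 16.6% and 16.7% to 18.1% were lower in these settings, against 19.2% in the main one. Mevalonate calls were 2 within the 4 arrays and 3 to 4 with 1 array left out. Late sterol calls were 3 within the 4 arrays, 5 with the 2-fold limit and 4 to 9 with 1 array left out. Calls in SREBP control were 1 with the 2-fold limit and 4 to 5 with 1 array left out, and fatty acid calls 5 to 6. The Elovl5 and Elovl6 pair gave 0.13 with the brightest probe set, −0.22 with the mean of probe sets and −1.10 to −0.57 with 1 array left out. With 1 array left out the Insig pair gave 0.20 to 0.67 and the Fads pair 0.48 to 0.85. By the brightest probe set and the mean of probe sets the Insig pair gave 0.44 and 0.34, and the Fads pair 0.39 and 0.45.

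With the replicate number as a block 21 genes were called, Dhcr7 being gained (adjusted p = 0.015, limma) and Hmgcs1 lost (0.096). Of all genes 21.1% were lower with this block. Same-numbered arrays deviated together with r = 0.04, 0.58 and 0.15 for replicates 1, 3 and 5, so the numbers were not taken to pair the arrays, and not every array correlated best with its own number. Array signal over background was not assessed for single genes.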

Other observations

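The pattern of lowest on WT replicate 1 and highest on WT replicate 5 was also counted in the other lists of lipid genes. It was found in 26.1% of the 23 genes of sterol uptake, export and storage, in 13.3% of the 15 genes of SREBP processing and reductase turnover, in 6.67% of the 15 genes of sterol reductases and the isoprenoid branch, and in 25.6% of the 39 genes of fatty acid elongation, activation and esterification, against 14.8% of all genes. Tm7sf2, Acss2 and Insig1, whose labels overlapped, were among the genes with this pattern, and Scap, Me1 and Elovl5 were not. These counts are descriptions of 3 arrays, chosen after the values were seen, and no test was run on them.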
